A study of Drosophila melanogaster with 2 samples.

Results

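The 38 segmentation and dorsoventral patterning genes described here are a named list of early regulators of the Drosophila melanogaster embryo. It covers gap and terminal, pair-rule, segment polarity, dorsoventral, and mesoderm and amnioserosa genes, and leaves out the Antennapedia complex. All 38 were found among 13945 protein-coding genes on the chromosome arms. The assay was ChIP-seq with an antibody to green fluorescent protein (GFP), in a stable transgenic line that carries the CG14965 protein with GFP fused to its C terminus. Chromatin came from whole embryos of pooled sex aged 0 to 24 h, sonicated to 200 to 800 bp, in 2 biological replicates numbered 3 and 4. They form 1 group with no second condition, and neither the control library nor an untagged line was analysed here. Binding in a few cells and weak binding in many cells cannot be told apart in whole embryos.

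The anteroposterior axis of the fly embryo is laid out by a cascade. Maternal factors switch on gap genes in broad domains, gap proteins set the stripes of pair-rule genes, and pair-rule proteins place the segment polarity genes that hold segment borders. Across the other axis, a nuclear gradient of Dorsal divides the embryo into mesoderm, neurogenic ectoderm and dorsal ectoderm, where Dpp signalling specifies the amnioserosa. Many of these genes are controlled by several separate enhancers in introns and flanking DNA, so sites away from the promoter are of particular interest.

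The deposited lists hold 30000 pooled candidate regions on the dm6 genome build, of which the 1302 with the highest signal value are the optimal peaks. The optimal list is labelled as thresholded by IDR (irreproducible discovery rate), a measure of agreement between replicates. The signal value is a peak caller score whose scale is not stated, so values are compared only within a list. The lowest optimal peak had a value of 69.8, the median was 101 and the highest 8276. The weakest candidate region had 19.5. A region was assigned to a gene when its summit lay in the gene or within 10 kb of either end. It was called a promoter region within 500 bp of any transcription start site (TSS) and distal otherwise. The lists carry no read numbers, and sequencing depth is therefore unknown for both replicates.

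The sites that carry the result lie away from start sites, and their DNA is shown first: 101 bases of the plus strand centred on the summit, dm6, read from the RefSeq Release 6 genome. The strongest site, between slp1 and slp2, is chr2L:3832487-3832587. The other sequences are 1 site each at cad (chr2L:20780906-20781006), Doc2 (chr3L:9025787-9025887), dpp (chr2L:2433599-2433699) and brk (chrX:7307026-7307126). Capitals mark GGTCACACT, the only word looked for that occurs in them.
slp1 and slp2: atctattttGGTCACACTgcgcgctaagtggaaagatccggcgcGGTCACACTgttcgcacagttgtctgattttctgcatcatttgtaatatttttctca
cad: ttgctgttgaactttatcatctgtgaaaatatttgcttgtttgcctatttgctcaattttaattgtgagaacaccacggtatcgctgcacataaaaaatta
Doc2: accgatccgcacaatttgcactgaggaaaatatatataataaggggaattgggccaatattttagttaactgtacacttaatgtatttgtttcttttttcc
dpp: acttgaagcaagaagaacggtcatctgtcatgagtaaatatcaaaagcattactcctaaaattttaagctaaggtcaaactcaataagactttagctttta
brk: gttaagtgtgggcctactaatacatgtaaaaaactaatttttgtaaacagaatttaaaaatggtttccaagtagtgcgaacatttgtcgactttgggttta

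Of the 38 genes, 11 had an optimal peak in their window: cad, slp1, slp2, ptc, dpp, brk, ths, pyr, Doc1, Doc2 and Doc3. This share of 28.9% (95% Wilson interval 17 to 44.8%, counting error only) is near the background of 26.9% of all protein-coding genes. All of the peaks lay away from promoters. No member had an optimal peak at its own promoter, where the background is 4.9%, and a count of 0 over 38 genes allows a share of up to 7.89%. None had one at the promoter of a neighbouring gene either, against 14.5% of protein-coding genes. All 11 had a distal peak, 28.9% beside 11% of protein-coding genes. No set test was run on these shares, and some members share a peak because their windows overlap.

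**Figure D1:**
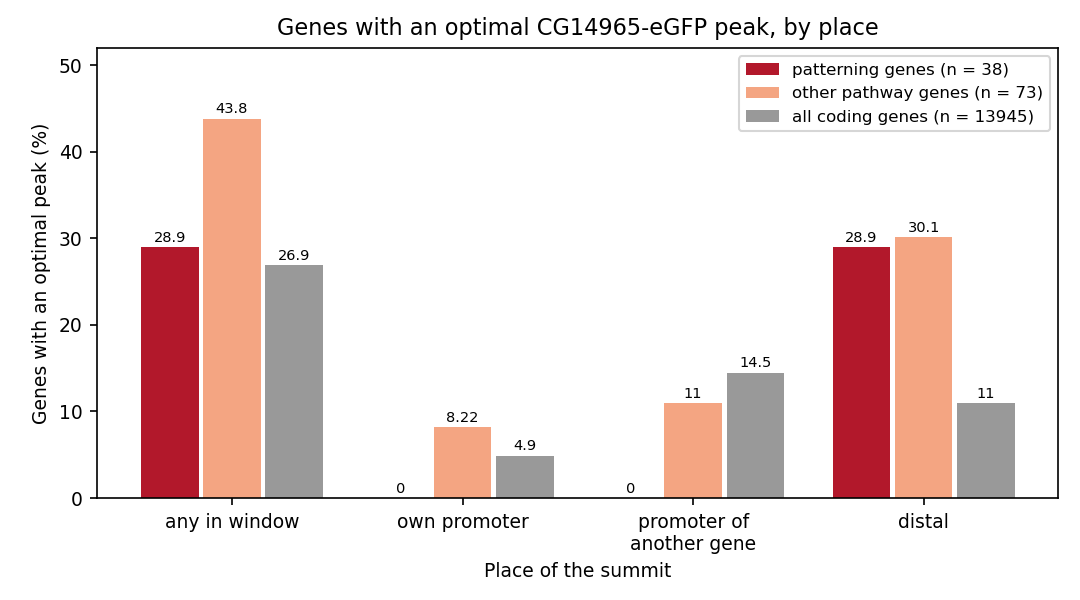
Share of genes (%, y axis) with an optimal peak in the window, by place of the summit (x axis), for the 38 patterning genes, 73 other genes of the same pathways and all 13945 protein-coding genes. The patterning genes stand at 28.9% for any place and for distal peaks and at 0 in both promoter classes; bars are counts from 1 peak list and carry no error.

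Gene length moved with these shares, and members also differed from other genes in their surroundings. Members had a median length of 4.49 kb against 2.17 kb over all protein-coding genes, and a median of 2 other coding genes touching the window against 5. Among genes longer than 10 kb, 5 of 12 members (41.7%) had a distal peak, beside 23.9% of 1977 protein-coding genes. Among those of 10 kb or less it was 6 of 26 members (23.1%), beside 8.83% of 11968. The part of length and gene spacing in the shares was not tested.

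The 11 genes have 12 optimal peaks among them, 6 in introns and 6 in intergenic DNA. Of all 715 distal optimal peaks, 65.7% lay in introns and 27.3% in intergenic DNA. The windows of all 38 genes held 282 of the candidate regions. Coding sequence held 12.1% of these regions and none of the 12 optimal peaks, and over the whole genome it held 1.31% of the optimal peaks. Of the 282 regions, 4.26% were optimal peaks, close to the 4.34% over all candidate regions. Among distal regions it was 12 of 233 (5.15%), beside 3.16% of all distal regions. Among promoter regions it was 0 of 49, which allows a share of up to 6.12%, beside 7.94% of all promoter regions. That limit takes the 49 as separate sites, but some overlap one another, so the true limit is higher. The 12 pooled signal values lay between 73.4 and 189 (median 89.1), and 2 of them were among the 651 strongest optimal peaks. Summits lay 863 to 6700 bp from the nearest TSS of any gene, with a median of 4307 bp, beside 2477 bp over all distal optimal peaks.

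Among the 7 gap and terminal genes only cad had an optimal peak. The gene cad encodes the homeodomain protein Caudal, which patterns the posterior embryo. Its peak (chr2L:20780738-20781173) lies in a cad intron, 10062 bp downstream of the nearest cad TSS, and is nearer the TSS of the neighbour Pomp, at 6700 bp. The signal was 114 in the pooled list, 64.6 in replicate 3 and 46.9 in replicate 4. It ranked 534 in the pooled list, 595 in replicate 3 and 581 in replicate 4, so all lists placed it alike. The other 6 genes of the group encode transcription factors that subdivide the trunk and the termini. The strongest regions of tll (40.2), hkb (37.9), Kr (37.3), kni (36), gt (22.3) and hb (22.2), by pooled signal, were all below the threshold. That of hkb was nearest the TSS of CG1103. The window of hb, the zinc-finger gap gene of the anterior embryo, held 1 candidate region, in its coding sequence, which replicate 3 had (14.9) and replicate 4 lacked.

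The pair-rule genes include the strongest site. The forkhead factor genes slp1 and slp2 lie side by side, and a peak between them (chr2L:3832427-3832591) had a pooled signal of 189, rank 216. Replicate 3 gave 90.1 (rank 303) and replicate 4 gave 98.3 (rank 169), and the peak is high in both. It lies 6862 bp downstream of the slp1 TSS and 4303 bp upstream of that of slp2. At 165 bp it is narrower than the other 11 peaks, each 436 bp wide. The next strongest region had a pooled signal of 46.2 in the slp1 window and 42.3 in the slp2 window.

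Just below the threshold were odd and opa, both genes of zinc-finger factors. For odd, an intergenic region 8101 bp from its TSS had a pooled signal of 68.9 (rank 1340), with 43.6 in replicate 3 and 20 in replicate 4. For opa, a region 5985 bp from its TSS had 68.0 (rank 1372), with 46.2 in replicate 3 and 26.1 in replicate 4. In replicate 3 both would be among as many regions as the optimal list holds (ranks 1239 and 1115), and in replicate 4 neither would (7665 and 2739). The genes of the Runt factor and of the homeodomain factors Even-skipped and Paired, run (39.9), eve (35.0) and prd (29.3), were lower. The eve and prd regions lay at promoters of other genes, lncRNA:CR46455 and Pex19.

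Of the 6 segment polarity genes, ptc had 2 optimal peaks and the others none. The gene ptc encodes the Hedgehog receptor Patched. The stronger peak (chr2R:8654157-8654592) lies in a ptc intron, 4726 bp downstream of the ptc TSS. It is nearer the TSS of lncRNA:CR44281, at 2879 bp. Its signal was 97.2 pooled, 55.4 in replicate 3 and 41.9 in replicate 4. The other peak (chr2R:8644146-8644581) is intergenic, 5285 bp upstream of the ptc TSS, with 93.9 pooled, 53.2 in replicate 3 and 38.8 in replicate 4. Both sites, 10011 bp apart on either side of the start, rank between 710 and 853 in all 3 lists. The ptc promoter itself had a candidate region 2 bp from the TSS with a pooled signal of 36.3 (rank 5862). The ligand genes wg (47.9) and hh (43.4) and the homeobox genes inv (44.3) and en (38.3) were well below the threshold, although the inv window held 20 candidate regions, the most of any member. The Pax gene gsb was lowest, at 23.9.

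Among the 10 dorsoventral genes, dpp and brk had an optimal peak. Dpp is the BMP ligand of the dorsal ectoderm and Brinker a repressor of its targets. The dpp peak (chr2L:2433431-2433866) lies in a dpp intron, 5277 bp downstream of a dpp TSS, with a pooled signal of 88.8, 47.9 in replicate 3 and 43.2 in replicate 4. Ranks were 840, 1038 and 672, all inside the optimal list's length. The brk peak (chrX:7306858-7307293) lies 863 bp upstream of the brk TSS, the shortest such distance among the 12, in introns of the overlapping genes CG1677 and lncRNA:CR44357. It had 75.6 pooled, 40.5 in replicate 3 and 30.5 in replicate 4, and neither replicate alone ranked it among as many regions (1431 and 1604). The brk window held 9 candidate regions, and the strongest of those below the threshold had pooled signals of 68.1 and 61.9.

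The gene sog, whose product binds Dpp outside the cell, had an intronic region at 65.7 (rank 1448), with 46.9 in replicate 3 and 29.8 in replicate 4. The strongest region of vnd, a homeobox gene of the ventral neural column, was at its own promoter, 79 bp from the TSS, with 50.7 pooled. It had 23.9 in replicate 3 (rank 4541) and 23.9 in replicate 4 (rank 3899). The early regulators were lower still, with a strongest pooled signal in the window of 41.8 for dl, the Rel factor of the gradient. It was 41.1 for sna and 27.9 for twi, its mesodermal targets. The dl region lay at the promoter of lncRNA:CR44409. The remaining values were 42.1 for rho, a protease that releases EGF ligands, 37.6 for tld, a protease that cleaves Sog, and 36.1 for the homeobox gene ind. The tld region was nearest the TSS of asp, and the ind region lay at the promoter of CG12310.

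Of the 8 mesoderm and amnioserosa genes, 5 (62.5%) had an optimal peak in the window, beside the 26.9% of all protein-coding genes. The count depends on how peaks are assigned: 3 genes (ths, pyr and Doc2) remained with peaks given to the nearest coding TSS, and 2 (ths and pyr) with the gene body alone. The shares of all protein-coding genes under these rules were not computed. The T-box genes Doc1, Doc2 and Doc3 (Dorsocross), which act in amnioserosa and heart, form a cluster with 4 optimal peaks, all intergenic. The strongest (chr3L:9025619-9026054) lies 6591 bp upstream of Doc2, with a pooled signal of 89.4, 60.5 in replicate 3 and 29.0 in replicate 4. A second (chr3L:9023565-9024000) lies 2054 bp from it, 4537 bp upstream of Doc2, with 78.5 pooled, 53.6 in replicate 3 and 23.3 in replicate 4. Both of these rank higher in replicate 3 (673 and 841) than in replicate 4 (1892 and 4242).

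The third Dorsocross peak (chr3L:9011793-9012228) lies between Doc3 and Doc2, past the 3′ ends of both, with 81.1 pooled, 38 in replicate 3 and 41.9 in replicate 4. Its nearest TSS is that of CG5194, at 2173 bp. The fourth (chr3L:9045249-9045684) lies 3638 bp downstream of the Doc1 TSS, past the end of the gene and 1972 bp from the TSS of Argk2, with 73.4 pooled, 42.2 in replicate 3 and 25.9 in replicate 4. It was the weakest of the 12, and neither replicate alone placed it within the optimal list's length (ranks 1322 and 2825). Of the 4 sites, the 2 upstream of Doc2 ranked inside the optimal list's length in replicate 3 alone and the one between Doc3 and Doc2 in replicate 4 alone.

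The FGF ligand genes ths and pyr each had an intronic peak, and their receptor gene htl had no optimal peak. The ths peak (chr2R:11791642-11792077) lies 1494 bp downstream of a ths TSS, with 95 pooled, 54.2 in replicate 3 and 37.2 in replicate 4. The pyr peak (chr2R:11716356-11716791) lies 4311 bp downstream of a pyr TSS, with 76.7 pooled, 31.4 in replicate 3 and 35.5 in replicate 4. The ths peak ranked 740, 828 and 937, whereas pyr ranked 1102 in the pooled list, 2404 in replicate 3 and 1046 in replicate 4. The htl window held 2 candidate regions, the stronger at 21.0, the lowest maximum of all 38 genes.

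The heart homeobox gene tin was the member nearest the threshold from below. Its region (chr3R:21378298-21378733) lies 461 bp from the tin TSS, with a pooled signal of 69.0 (rank 1330), 43.8 in replicate 3 and 33.3 in replicate 4. Each replicate alone ranked it inside the optimal list's length (1227 and 1251), which made it the 1 promoter region of a member that both replicate lists would include. The weakest member peak above the threshold, that of Doc1, had 73.4. The window of the neighbouring visceral mesoderm gene bap had at most 33.6, in a region nearest the TSS of Ugt49B2.

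**Figure D2:**
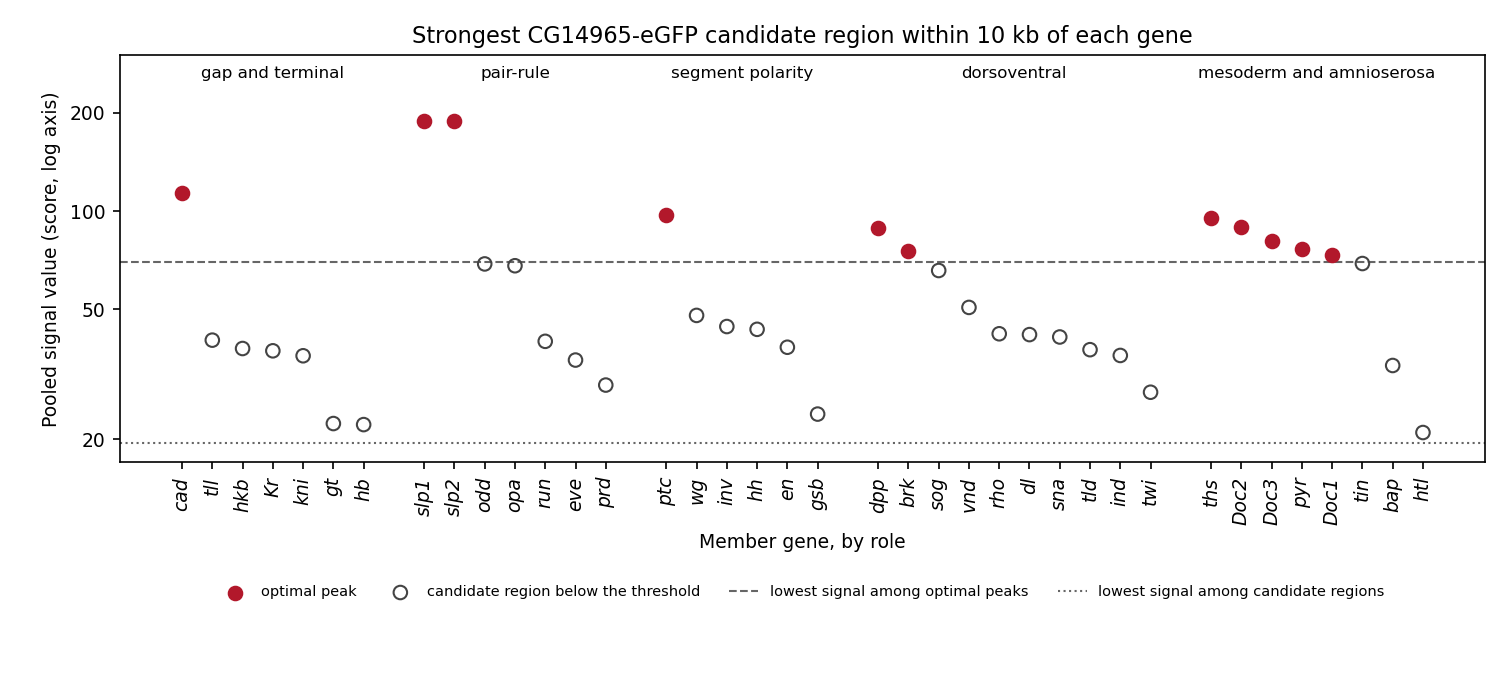
Pooled signal value (score, log y axis) of the strongest region in the window of each of the 38 genes (x axis, by role). Filled points are optimal peaks and open points candidate regions; the dashed line is the lowest optimal peak (69.8) and the dotted line the lowest candidate region (19.5). The genes tin, odd, opa and sog sit just under the dashed line, and hb, gt and htl near the dotted one.

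Across all 38 genes the strongest region had a median pooled signal of 42.7, beside 46.1 over all protein-coding genes. Every member had at least 1 candidate region, from 1 at hb to 20 at inv, and 9 had 3 or fewer. By role the median of the strongest signal was 75.1 for mesoderm and amnioserosa genes, 68.0 for pair-rule, 43.8 for segment polarity, 42 for dorsoventral and 37.3 for gap and terminal genes. The pair-rule median counts the same peak (189) for both slp1 and slp2, which raises it. A median over separate peaks was not computed. Of the 27 genes without an optimal peak, the 19 outside the 8 strongest (tin, odd, opa, sog, vnd, wg, inv and hh) ran from 21.0 to 42.1.

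Own promoters were not empty of weaker signal. A candidate region lay within 500 bp of an own TSS in 17 of 38 members (44.7%), beside 42.5% of all protein-coding genes. There were 22 such regions, led by tin (69.0), vnd (50.7), sna (41.1), ptc (36.3) and kni (36). Of these 22, 10 overlapped a region in both replicates, 8 lacked one in replicate 4 and 4 lacked one in replicate 3. Some of the 22, as at tin, wg and sog, overlap one another and share a replicate region, so they are not all separate sites.

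All 12 optimal peaks overlapped a region in each replicate, as did nearly all optimal peaks of the whole list (100% in replicate 3 and 99.3% in replicate 4). Agreement between replicates was used to set the optimal list, so this overlap was close to fixed in advance and is no separate support. Of the 12, 8 overlapped one of the 1302 strongest regions of replicate 3 and 8 one of those of replicate 4. Over all optimal peaks these shares were 84.2% and 76.1%, against 66.7% for each here. The 6 peaks at slp1 and slp2, cad, ptc, ths and dpp (50%) were inside in both replicates, beside 64.1% of all optimal peaks. Those at brk and Doc1 were inside in neither. The 12 peaks were weaker than the whole list (median pooled signal 89.1 against 101), and only 2 were among the 651 strongest. Weaker peaks lie nearer the cut, and shares over optimal peaks of like signal were not computed. The lower shares here therefore do not show poorer agreement between replicates at these genes. Of all 282 candidate regions in the windows, 126 (44.7%) overlapped a region in both replicates, beside 41.6% of all candidate regions, and Spearman's rho of the replicate signals across these 126 was 0.46, beside 0.44 across the 12488 such regions of the whole list. Both values are descriptions across regions, which share their libraries and of which some share a replicate region.

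**Figure D3:**
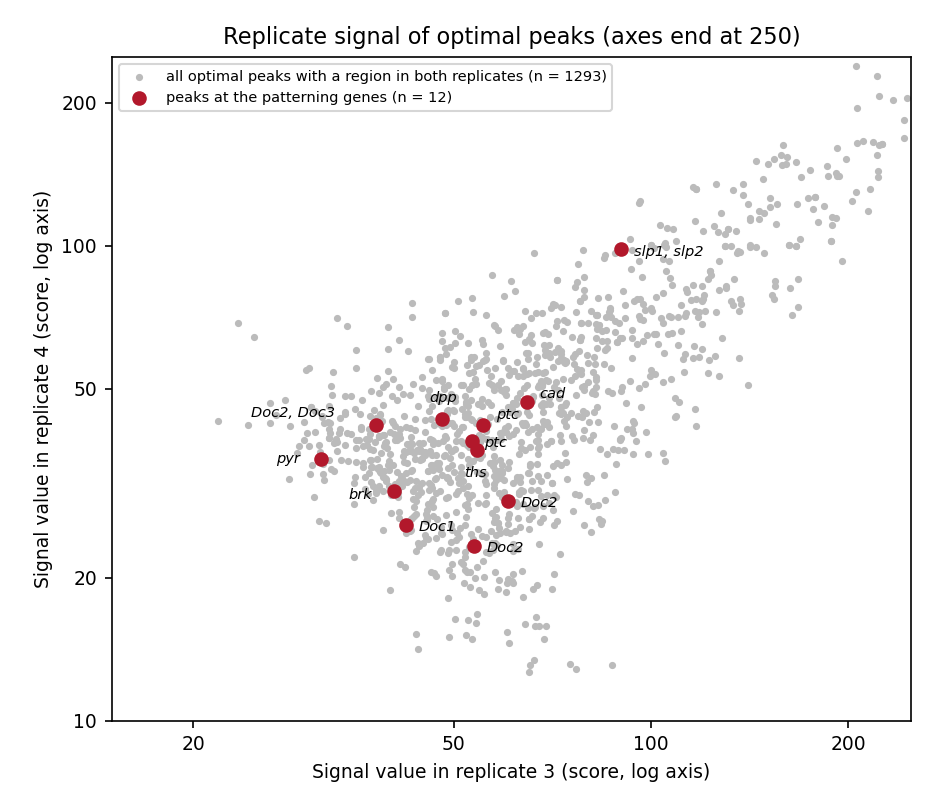
Signal value of optimal peaks in replicate 3 (x axis) and replicate 4 (y axis), both scores on log axes that end at 250; grey points are all peaks with a region in both replicates (n = 1293) and red points the 12 peaks at the patterning genes. The slp1 and slp2 site stands apart at 90.1 and 98.3, and the others lie between 31.4 and 64.6 in replicate 3.

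Some regions were high in 1 replicate only. Replicate 4 had a region 4076 bp from the hh TSS, in intergenic DNA, with a signal of 41.2 (rank 740), which replicate 3 lacked and which reached 43.4 in the pooled list. Near brk, replicate 4 had a region at 44.9 (rank 623) that replicate 3 placed at rank 7239. Of the strongest regions of each replicate, as many as the optimal list holds, 12 lay in the windows in replicate 3 and 12 in replicate 4. They gave 11 members in replicate 3, beside 26.5% of all protein-coding genes, and 12 in replicate 4, beside 27.6%.

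**Figure D4:**
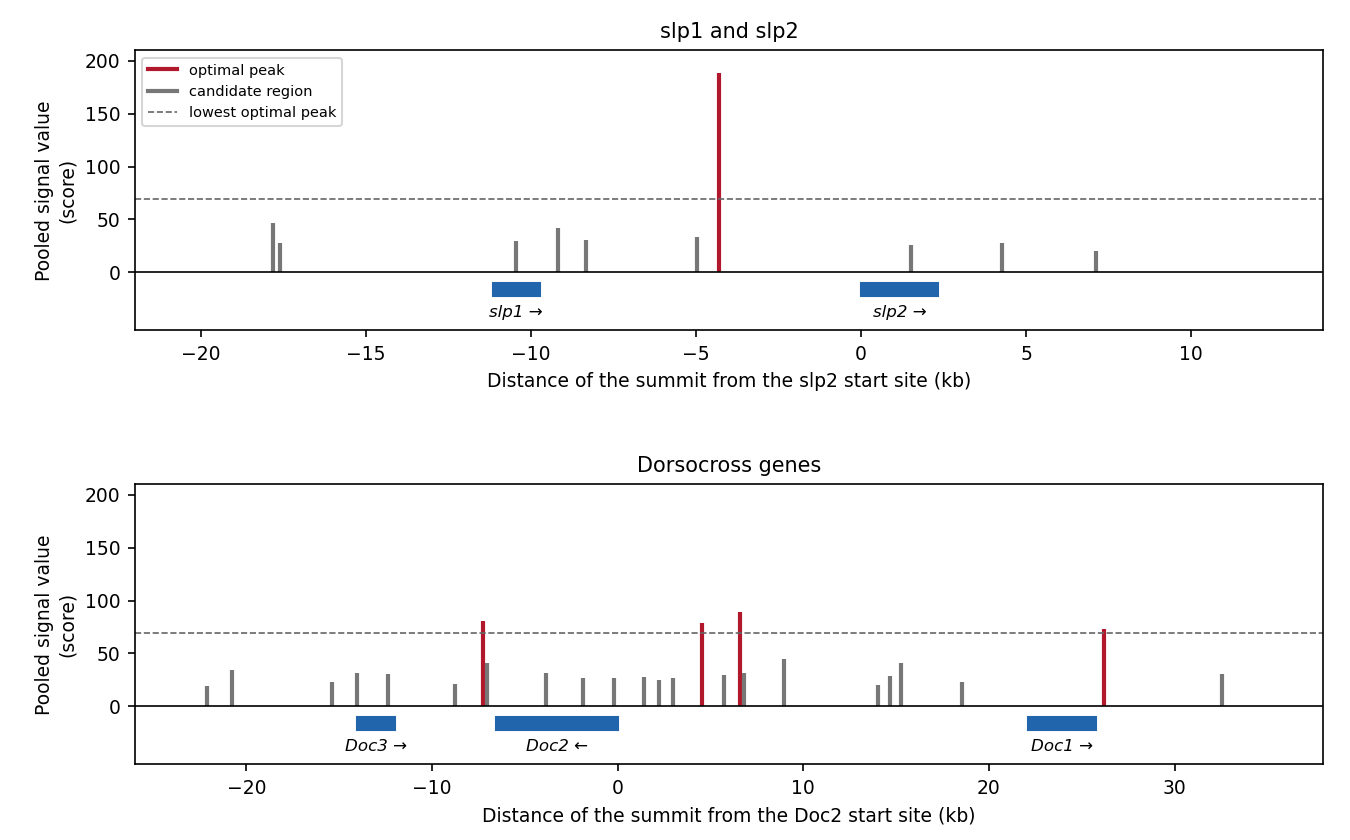
Pooled signal value (score, y axis) of every candidate region around slp1 and slp2 (top) and the Dorsocross genes (bottom), by distance of the summit from the slp2 or Doc2 start site (kb, x axis); blue bars are genes with arrows for their strand. Red lines are optimal peaks, with 1 between slp1 and slp2 at 189 and 4 around the Dorsocross genes from 73.4 to 89.4.

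The DNA at the 12 summits was poor in G and C, with a mean of 34.6% in the 101 bases around the summit (range 24.8 to 43.6%). This lies beside 38.1% over all optimal peaks and 45.2% over all candidate regions, and candidate regions below the threshold in the same windows had 45.9%. The extremes were Doc1 at 24.8% and the slp1 and slp2 site and pyr at 43.6%.

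Within 50 bp of the summit, on both strands, none of 9 motifs searched was present at any of the 12 peaks. This count of 0 allows a share of up to 25%. The motifs were the CTCF element (AGATGGCGC, AGAGGGCGC, AGGTGGCGC or AGGGGGCGC), found at 5.91% of all optimal peaks and 8.11% of distal ones, and CAGGTAG, bound by Zelda, at 0.461% of optimal peaks. The others were GAGAGAG (1.23%), TATCGATA of the DRE (1.31%), TAATCC, bound by Bicoid (3.07%), the homeodomain word TAATTA (6.84%) and the E-boxes CACATG (3.92%), CAGCTG (4.61%) and CACGTG (2.23%), each with its share of all optimal peaks. Over all 30000 candidate regions the shares ran from 0.543% for TATCGATA to 6.04% for CAGCTG, with the CTCF element at 0.717%. With the whole peak searched, TAATTA was in 4 of the 12, beside 23.1% of all optimal peaks, CAGCTG in 2, beside 20.1%, and CACGTG in 2, beside 6.68%. At that width 6 of the 12 (50%) held at least 1 of the 9 motifs, beside 69.4% of all optimal peaks.

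The slp1 and slp2 site holds GGTCACACT at positions 10 and 45 of the sequence printed above, counted from its first base, both on the plus strand. This word is the core of a promoter element known as motif 1, and it was searched after that sequence had been read. It lay within 50 bp of 3 of the 1302 optimal peaks (0.230%) and of 0.237% of all candidate regions. Within 100 bp these shares were 0.998% and 0.517%, and in the whole peak 2.07% and 1.04%. Of the 715 distal optimal peaks, 1 had the word within 50 bp. The slp1 and slp2 site was the 1 optimal peak with 2 copies, and 2 of all candidate regions had as many. The summit lies 4303 bp from the nearest annotated TSS, so no annotated promoter is at this place.

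Of 73 other genes of the anteroposterior and dorsoventral pathways, 32 (43.8%) had an optimal peak in their window, beside the 26.9% of all protein-coding genes. A distal peak was present at 22 (30.1%) and an own promoter peak at 6 (8.22%), beside 11 and 0 of the 38 members, and 34 of the 73 are longer than 10 kb. Of these 34, 61.8% had an optimal peak and 52.9% a distal one, beside 38.8% and 23.9% of all protein-coding genes of that length. Of the 39 of 10 kb or less, 28.2% had an optimal peak and 10.3% a distal one, beside 24.9% and 8.83%. The 8 with the strongest peaks, by pooled, replicate 3 and replicate 4 signal, were led by ush, a cofactor of GATA factors in the dorsal ectoderm, with an intronic peak of 834, 454 and 378. The muscle regulator Mef2 had a window peak of 337, 194 and 140, which lay at the promoter of its neighbour Pal1.

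The POU gene nub had an intronic peak of 254, 166 and 99.8. Of the BMP pathway, the ligand gene gbb had 238, 142 and 99.3, at the promoter of asRNA:CR45928. The transducer genes Mad and Med had 225, 120 and 108 in an intron, and 210, 106 and 109 at the promoter of Mnat9. The gene fz, a Frizzled receptor, had an intronic peak of 212, 133 and 75.1. The corepressor gene gro had its peak at its own promoter, 137 bp from the TSS, with 204, 106 and 92.8. Each of these 8 values was above the pooled signal of 189 between slp1 and slp2. The difference between the gene lists was not tested.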

How the data were processed

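ChIP-seq of CG14965-GFP embryos was deposited as narrowPeak lists on dm6 and dm3. The deposited dm6 lists (optimal, pooled and 1 per replicate) were used, and 4 dm3 lists were not. Column 7 is a deposited signal score without a stated scale, and column 10 the summit offset. Lists were made by the authors from alignments and a control library, per the text files deposited with each sample; names of aligner and peak caller, not given in the sources used here, are left out. Gene models came from Ensembl release 115 (BDGP6), without transposable elements, and sequence from RefSeq Release 6; chromosome names and lengths contained all regions. A pooled region's replicate value is that of the overlapping replicate region (at least 1 bp) of highest signal.

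All results are descriptions; no test was run, since 1 group of 2 replicates allows no comparison of conditions. The share of members with a peak carries a 95% Wilson interval, shares of 0 that carry a limit use 3 counts, and other shares are given as counts without an interval. The rule named every member with an optimal peak, the 8 strongest without, and the 8 strongest of the other pathway genes. Members and lists were chosen with earlier results of these data known; of 76 other pathway symbols, 3 had no match. Regions were placed and matched with Python 3.11.15, pandas 2.3.3 and numpy 2.4.6, tested on simulated data.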

Additional observations from a re-analysis of the deposited data

How the results depend on the processing

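The depth of the replicates is unknown, which limits what weak regions can show, and no untagged line was analysed here. No paired analysis was possible because both samples belong to 1 group. Of 11 members with an optimal peak, all distal, and 12 peaks, the gene body alone kept 5, 5 and 5, and the 651 strongest optimal peaks 3, 3 and 2. Counting peaks only where the nearest coding TSS was the member's gave 7 members, 7 of them distal. Shares of all protein-coding genes were not computed for these alternatives. A window of 20 kb gave 19 peaks at 15 members, 13 of them with a distal peak and 0 with a peak at an own promoter. The rest of the 15 had a peak only at the promoter of another gene, and the share of all protein-coding genes was again not computed. With that window the median strongest signal was 68.4 in place of 42.7, an alternative chosen after seeing the data. The count of 0 own promoters became 1 (brk) with a promoter of 1000 bp and 1 (tin) with either replicate alone. With 1 replicate left out, the members with a peak numbered 11 to 12, those with a distal peak 10 to 11, the peaks 12 to 12, and the optimal share of regions 3.86 to 4.30%. Of the 12 peaks, 0 had a listed motif within 50 bp of the summit, 3 within 100 bp and 6 in the whole peak. Wider windows search more sequence: over all optimal peaks these shares were 27%, 44% and 69.4%. In all, 37 recomputed values, some of them given above, were within 1.5 times their main value. Of the ranks of single peaks in 1 replicate alone, 16 stayed within the optimal list's length and 8 did not.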
